A study of Homo sapiens with 6 samples.

Results

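The genes described here are the keratins KRT5, KRT7, KRT8, KRT10, KRT17, KRT18 and KRT19 and the adhesion molecule EPCAM, 8 genes taken by name from a table of 57773. All 8 passed the filter on low counts that left 17805 genes for testing. They were measured by RNA sequencing in HEK293, an established line from human embryonic kidney, in 3 libraries whose labels say TRDMT1 knockdown and 3 whose labels say control. The comparison addresses what TRDMT1, a methyltransferase that acts on tRNA, does in these cells. How the knockdown was made, and whether replicates were separate cultures, is not given here, so a p-value may reflect technical spread alone. The labels' protocol describes removal of ribosomal RNA, a bisulfite kit and stranded libraries, but not whether this table came from treated RNA, and both groups share the HEK293 background.

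Keratins are the intermediate filament proteins of epithelial cells. Each filament is built from pairs of one type I and one type II chain, and a chain without its partner is degraded. KRT8 (type II) pairs with KRT18 or KRT19 (type I) in simple epithelia such as kidney tubules, KRT5 pairs with KRT14 in the basal layer of stratified epithelia, and EPCAM is a surface glycoprotein that joins simple epithelial cells to each other.

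The level of TRDMT1 itself went against the labels. TRDMT1 had 221, 225 and 245 counts in the knockdown-labelled libraries, against 99, 93 and 80 in the control-labelled libraries, and 0.58 RPKM in each of the first 3, against 0.36, 0.36 and 0.28 RPKM in the others. RPKM is the count divided by exon length and library total. The groups did not overlap, with more TRDMT1 in the knockdown-labelled libraries, at a log2 fold change of 0.61 ± 0.21 (SE) and an adjusted p of 0.0705 in edgeR's quasi-likelihood test and 0.0195 in DESeq2. The table's column names also point the opposite way to the titles. Each direction given here follows the titles and the genotype labels, which the targeted gene did not bear out, and the groups are named by their labels only. Library totals were between 36455950 and 40088993 counts in the knockdown-labelled libraries and between 24776040 and 26802182 in the control-labelled libraries. Variation between replicates beyond counting noise, as a coefficient, came to 5.43% in the knockdown-labelled libraries and 31.8% in the control-labelled libraries, among which replicate 2 stood apart with a TMM scaling factor of 0.812.

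The keratins resemble each other in sequence, and this bears on how reads are assigned to them. The stretches below are the coding bases at the start of the conserved helical rod, chosen as the window of 60 bases most alike among the type I members, from GENCODE release 29 transcripts, 5′ to 3′. Lower case marks bases that all 4 share and capitals mark positions where at least one differs. The type I members share 43 of the 60 bases.
KRT17: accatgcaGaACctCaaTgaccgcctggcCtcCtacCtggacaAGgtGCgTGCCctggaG
KRT10: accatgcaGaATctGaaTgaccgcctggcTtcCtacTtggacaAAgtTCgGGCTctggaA
KRT18: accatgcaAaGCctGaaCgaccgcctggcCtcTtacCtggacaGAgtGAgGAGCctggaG
KRT19: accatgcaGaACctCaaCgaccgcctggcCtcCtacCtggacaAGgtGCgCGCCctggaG

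Over the whole coding sequence the likeness was lower. KRT17 and KRT19 were identical at 73.6% of aligned bases and KRT5 and KRT7 at 75.1%, while KRT8 and KRT18, which belong to different types, were identical at 57.0%. Reads of KRT8 and KRT18 can also match their many processed pseudogenes. Of the 50-base stretches of the KRT8 transcript, 41.3% occur in a transcript of another gene, and of those of the KRT18 transcript 35.1%, in each case mostly of pseudogenes. The share was 17.4% for KRT17, which shares stretches with its pseudogenes and with KRT14 and KRT16, and at most 3.99% for the other members. In the table, the 50 rows named as KRT8 pseudogenes together held between 0.779% and 1.03% of the count of KRT8 in each library, and the 67 rows of KRT18 pseudogenes between 0.485% and 0.872% of the count of KRT18.

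The members spanned a wide range of levels in HEK293. Their order by mean RPKM over the 6 libraries was KRT8 at 177, KRT18 at 97.1, KRT19 at 77.4, EPCAM at 54.5, KRT10 at 16.2, KRT17 at 2.86, KRT7 at 0.183 and KRT5 at 0.07. KRT8 lay above KRT18 in 6 of 6 libraries. KRT18 lay above KRT19, and KRT19 above EPCAM, in 5 of 6 libraries, so the places of these neighbours were not separated in every library. KRT8, KRT18, KRT19 and EPCAM, genes of simple epithelia, held the first 4 places, while KRT7, also a keratin of simple epithelia, lay near the bottom.

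**Figure D1:**
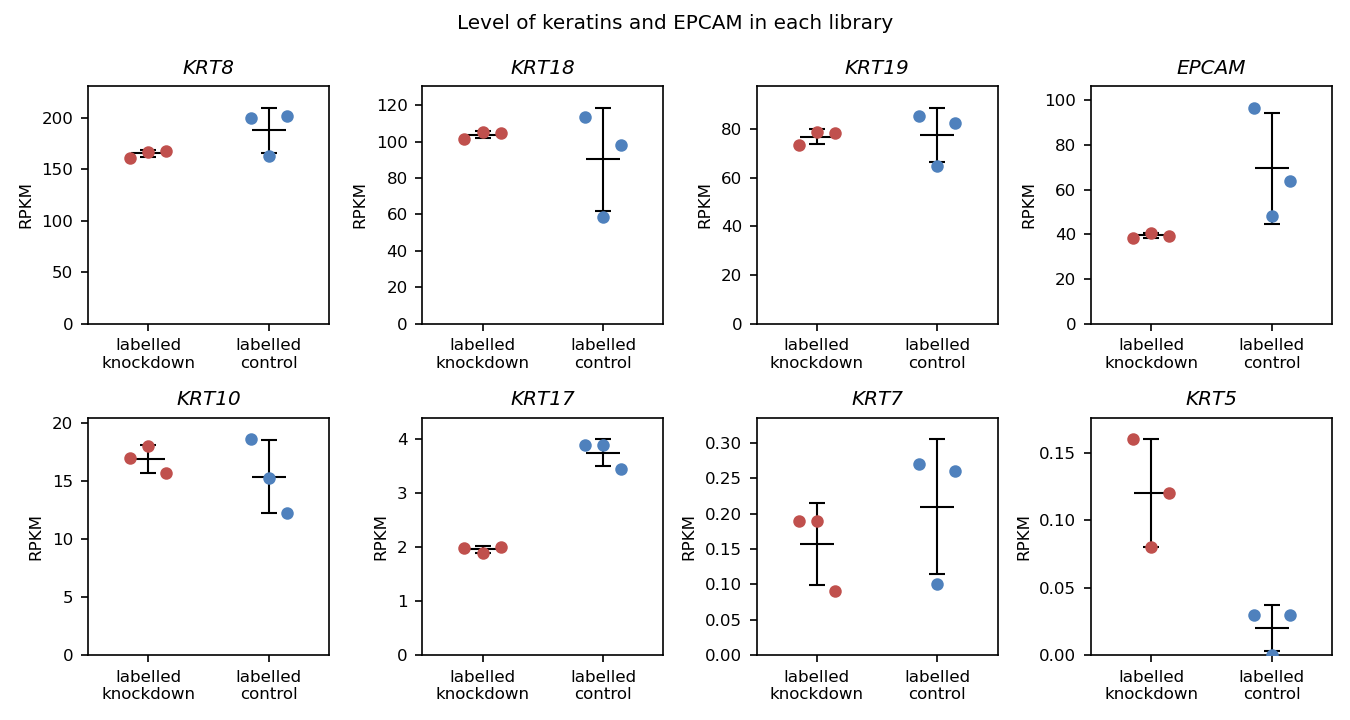
Level of each gene in RPKM (vertical axes, each from 0) in the 3 knockdown-labelled libraries and the 3 control-labelled libraries. Points are libraries 1 to 3 from left to right, and bars are the mean ± SD. EPCAM and KRT17 lie lower, and KRT5 higher, in every knockdown-labelled library than in any control-labelled library, and the control-labelled libraries spread more widely for most genes.

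Between the groups, edgeR called 3 of the 8 genes: EPCAM and KRT17 fell and KRT5 rose in the knockdown-labelled libraries, while the abundant keratins KRT8, KRT18 and KRT19 did not pass the test. KRT5 entered the test only through the group where it is high, so its call is not independent of the filter. Of all 17805 genes tested 24% were called, 9.29% higher and 14.7% lower, so 1 of 8 higher and 2 of 8 lower is near the background. Without replicate 2 of the control-labelled libraries the counts were 1 higher and 3 lower, and without any one knockdown-labelled library 0 higher and 1 lower. The median log2 fold change was −0.27 over the 8 genes and −0.04 over all genes tested. In bulk RNA, fewer cells with a transcript and less of it per cell cannot be told apart.

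EPCAM (ENSG00000119888, chromosome 2) had 38.40, 40.66 and 39.33 RPKM in the knockdown-labelled libraries, against 96.69, 48.10 and 63.78 RPKM in the control-labelled libraries. The groups did not overlap, and the control-labelled libraries differed from each other by more than replicate 2 of them differed from the knockdown-labelled libraries. Scaled by TMM, EPCAM averaged 93.5 ± 2.59 CPM (counts scaled to the library total) in the knockdown-labelled libraries and 183 ± 53.0 CPM in the control-labelled libraries (SD, n = 3 each). The log2 fold change was −0.97 ± 0.20, or 1.96-fold lower, with an adjusted p of 0.0168 in edgeR. EPCAM kept its direction in all 15 other settings and the call in 8 of them. The call was lost on the RPKM scale (adjusted p = 0.0725 in limma-trend), with plain library totals in place of TMM (0.0617), with trends of base composition and length removed (0.0552), and without replicate 1, 2 or 3 of the knockdown-labelled libraries (0.0829, 0.0737 and 0.0826), each in edgeR unless named. The transcript of EPCAM holds 45.2% G and C, less than that of any of the 7 keratins, which hold 52.0% to 62.9%.

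KRT17 (ENSG00000128422, chromosome 17), a type I keratin of skin appendages that is induced in wounded and activated keratinocytes, had 1.99, 1.89 and 2.01 RPKM in the knockdown-labelled libraries. In the control-labelled libraries it had 3.90, 3.90 and 3.46 RPKM. The values lay close together within each group and the groups did not overlap. KRT17 averaged 4.68 ± 0.15 CPM in the knockdown-labelled libraries and 10.2 ± 1.84 CPM in the control-labelled libraries (SD, n = 3 each). The log2 fold change was −1.12 ± 0.18, or 2.18-fold lower, with an adjusted p of 0.00656 in edgeR. KRT17 was the one member called in all 15 other settings, with log2 fold changes between −1.24 and −0.68 and adjusted p from 8.32e-07 to 0.0490 (edgeR, DESeq2 and limma). Its counts, 176 to 204 in the knockdown-labelled libraries and 235 to 262 in the control-labelled libraries, could include reads of KRT14 or KRT16, which were themselves at few counts or none.

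KRT5 (ENSG00000186081, chromosome 12), the type II keratin of basal cells, was near the limit of detection. It had 25, 13 and 21 counts in the knockdown-labelled libraries, against 3, 0 and 3 counts in the control-labelled libraries, or 0.16, 0.08 and 0.12 RPKM against 0.03, 0.00 and 0.03 RPKM. The groups did not overlap, with 0.16 RPKM as the highest level of any library. The fitted log2 fold change was 2.56 ± 0.63, with an adjusted p of 0.0286 in edgeR, and its size rests on 6 counts in all in the control-labelled libraries. KRT5 passed the filter on low counts only through the knockdown-labelled libraries. On the log2(RPKM + 1) scale the difference was 0.13. The call was lost without replicate 2 of the knockdown-labelled libraries (adjusted p = 0.0661 in edgeR) and without replicate 1 of the control-labelled libraries (0.0775), and KRT5 fell below the filter without replicate 1 or 3 of the knockdown-labelled libraries. KRT14, which pairs with KRT5 in basal cells, had 0, 5 and 0 counts in the knockdown-labelled libraries, against 4, 0 and 6 counts in the control-labelled libraries, and was not tested.

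KRT8 (ENSG00000170421, chromosome 12) was the most abundant of the 8 genes in every library. It had 161.34, 167.02 and 167.53 RPKM in the knockdown-labelled libraries, against 199.97, 162.60 and 201.27 RPKM in the control-labelled libraries. The RPKM groups overlapped through replicate 2 of the control-labelled libraries. After TMM scaling, which raised that replicate, they did not, at 762, 786 and 786 CPM in the knockdown-labelled libraries and 1004, 1002 and 981 CPM in the control-labelled libraries. The log2 fold change was −0.36 ± 0.15 with an adjusted p of 0.116 in edgeR. DESeq2 (adjusted p = 0.00181), voom with sample weights (0.000811), edgeR without replicate 2 of the control-labelled libraries (0.00372) and edgeR with composition trends removed (0.0296) each called it lower, and all 17 other settings gave the same sign. Adding the pseudogene counts to KRT8 left the log2 fold change at −0.36.

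KRT18 (ENSG00000111057), the neighbour of KRT8 on chromosome 12 and the main type I partner of that chain in simple epithelia, had 101.55, 105.16 and 104.86 RPKM in the knockdown-labelled libraries. In the control-labelled libraries it had 113.88, 58.65 and 98.40 RPKM. Replicate 2 of the control-labelled libraries was low and the other two enclosed the knockdown-labelled libraries, so the groups overlapped. The log2 fold change was 0.05 ± 0.18 with an adjusted p of 0.85 in edgeR. Its sign turned to −0.10 without replicate 2 of the control-labelled libraries, so no direction can be given for KRT18. KRT18 overlaps KRT8 on the opposite strand, and whether counting used the strand is not given, so reads of KRT8 and KRT18 may be mixed.

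KRT19 (ENSG00000171345, chromosome 17), the smallest keratin and one that lacks most of the tail domain, had 73.53, 78.85 and 78.50 RPKM in the knockdown-labelled libraries, against 85.57, 65.03 and 82.69 RPKM in the control-labelled libraries. These values overlapped, and the log2 fold change was −0.18 ± 0.11 with an adjusted p of 0.247 in edgeR. Voom with sample weights called it lower (−0.22, adjusted p = 0.0181).

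KRT10 (ENSG00000186395, chromosome 17), a type I keratin of the upper epidermis, had 16.98, 18.07 and 15.73 RPKM in the knockdown-labelled libraries, against 18.64, 15.24 and 12.30 RPKM in the control-labelled libraries. The groups overlapped and the log2 fold change of −0.05 ± 0.20 (adjusted p = 0.869 in edgeR) changed sign between settings. KRT10 overlaps TMEM99 on the opposite strand, and whether counting used the strand is not given, so their reads may be mixed. TMEM99 had 1004, 1008 and 1090 counts in the knockdown-labelled libraries, against 937, 649 and 852 counts in the control-labelled libraries.

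KRT7 (ENSG00000135480, chromosome 12), a type II keratin of ducts and glandular epithelia, had 28, 28 and 15 counts in the knockdown-labelled libraries and 29, 10 and 28 counts in the control-labelled libraries. The groups overlapped at no more than 0.27 RPKM, and the log2 fold change was −0.57 ± 0.41 with an adjusted p of 0.342 in edgeR. KRT7 shares its place in the genome with KRT7-AS, KRT86 and KRT87P, so its few reads may not all be its own.

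Across the 8 genes, TMM-scaled CPM did not overlap between the groups for 5: KRT5 was higher, and KRT8, KRT17, KRT19 and EPCAM were lower, in the knockdown-labelled libraries. Of all genes tested 49.9% did not overlap, 23.9% higher and 26% lower. An exact permutation test of log2(RPKM + 1), two-sided and unable to go below 0.1 with 3 against 3, gave 0.1 for EPCAM, KRT5 and KRT17 and between 0.3 and 1 for the other members.

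**Figure D2:**
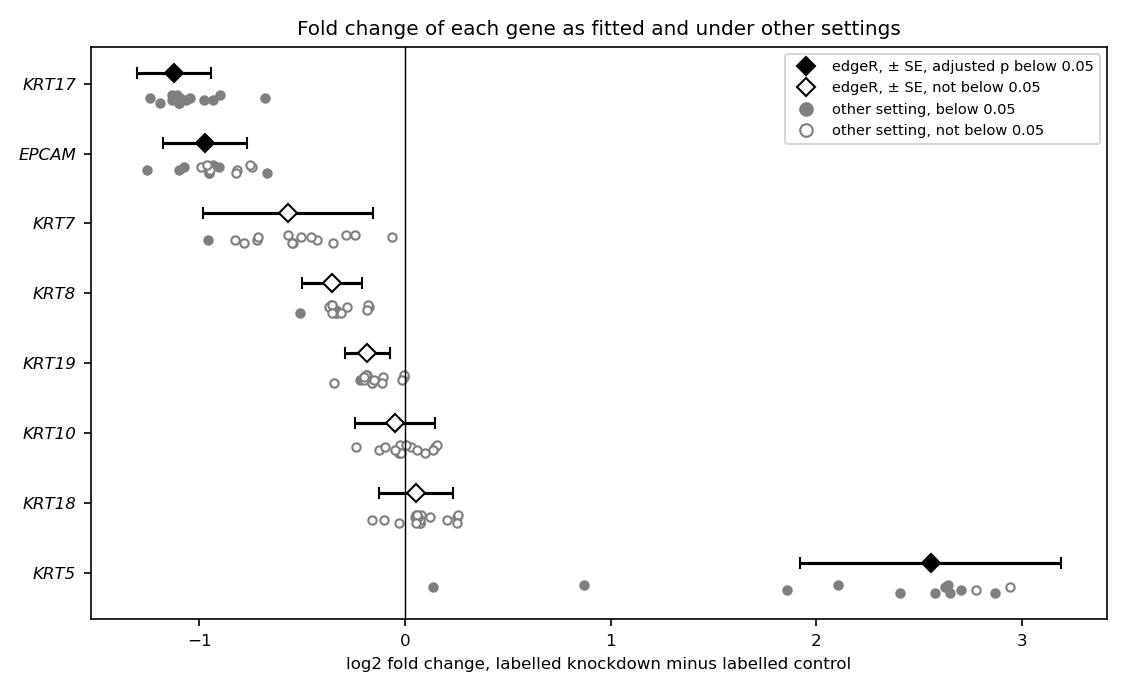
Log2 fold change (horizontal axis, knockdown-labelled libraries minus control-labelled libraries) of each gene. Diamonds are the edgeR fit ± SE and circles are the other settings, filled where the adjusted p is below 0.05. KRT17 is filled throughout, EPCAM is filled in 8 of 15 settings, and KRT10 and KRT18 straddle 0.

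In the keratin pool some shares separated the groups and others overlapped, and 49.9% of single genes tested did not overlap either. Summed over 29 type I and 26 type II keratin genes, keratin RPKM averaged 367 ± 8.33 in the knockdown-labelled libraries and 378 ± 63.1 in the control-labelled libraries (SD, n = 3 each), and the groups overlapped. KRT8 held 45.2%, 44.8% and 45.2% of the sum in the knockdown-labelled libraries, against 46.9%, 53.0% and 50.1% in the control-labelled libraries. KRT18 held 28.4%, 28.2% and 28.3% in the knockdown-labelled libraries, against 26.7%, 19.1% and 24.5% in the control-labelled libraries. The share of KRT8 was thus lower and that of KRT18 higher in every knockdown-labelled library than in any control-labelled library (exact permutation p = 0.1 for each, the smallest possible). As the largest parts of the same sum, these shares are not independent of each other. KRT19 held 21.0% ± 0.343 in the knockdown-labelled libraries and 20.6% ± 0.561 in the control-labelled libraries (SD, n = 3 each), with overlap. KRT10 held 4.62% ± 0.323 in the knockdown-labelled libraries and 4.13% ± 0.973 in the control-labelled libraries, with overlap. KRT7 held 0.0428% ± 0.0161 in the knockdown-labelled libraries and 0.0535% ± 0.0182 in the control-labelled libraries (SD, n = 3 each for both genes), also with overlap.

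The partner ratio followed these shares. The ratio of type II to type I RPKM was 0.837, 0.823 and 0.837 in the knockdown-labelled libraries, against 0.914, 1.142 and 1.03 in the control-labelled libraries. KRT18 over KRT8 was 0.629, 0.630 and 0.626 in the knockdown-labelled libraries, against 0.569, 0.361 and 0.489 in the control-labelled libraries. Both ratios separated the groups, and the exact two-sided permutation p was 0.1 for each, the smallest possible. Both are built from the same values as the shares and are not independent of them or of each other. KRT8 and KRT18 overlap on opposite strands, so mixed reads could enter their ratio and their shares, which was not tested. KRT19 over KRT8 averaged 0.465 ± 0.00861 in the knockdown-labelled libraries and 0.413 ± 0.0141 in the control-labelled libraries (SD, n = 3 each; exact permutation p = 0.1). The ratio depends on the exon length used. A second ratio used the length of the coding transcript in its place and summed only the keratins among the members. Type II over type I was then 1.28, 1.27 and 1.28 in the knockdown-labelled libraries, against 1.39, 1.83 and 1.57 in the control-labelled libraries. Which type is in excess thus cannot be told. The order of the groups was the same, but both ratios use the same counts with a fixed length per gene, so this is not separate evidence.

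**Figure D3:**
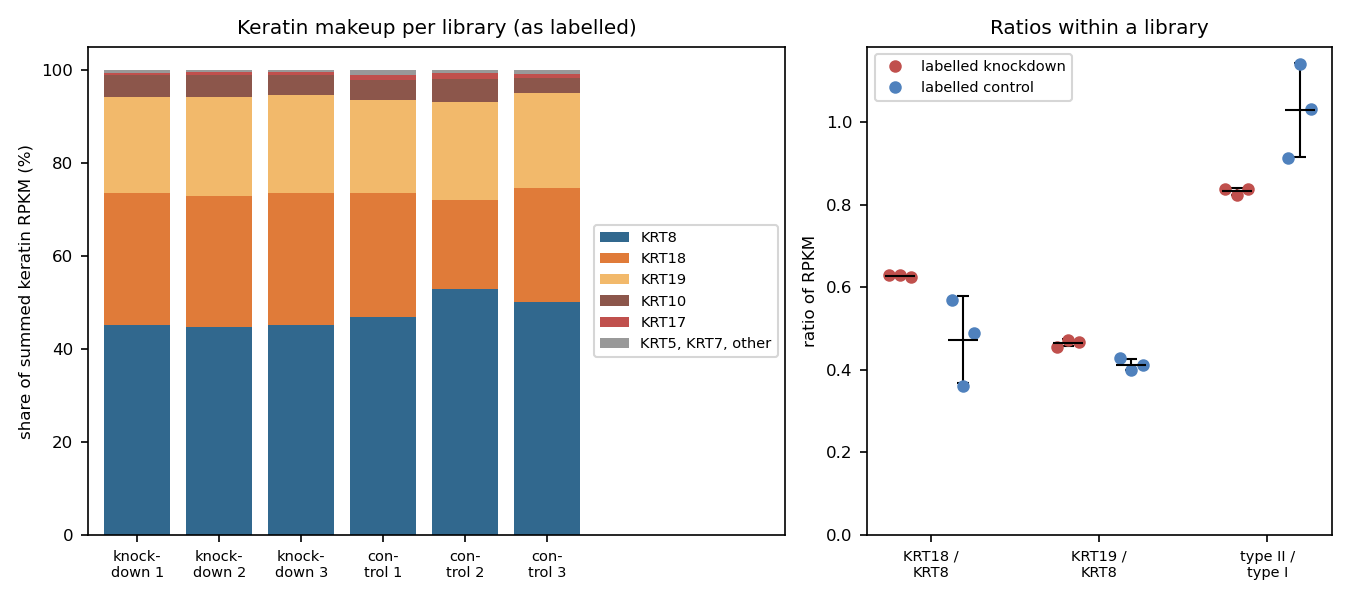
Left, share of summed keratin RPKM in percent (vertical axis) held by each gene in each library. Right, ratios of RPKM within a library, with points as libraries and bars as mean ± SD. KRT18 over KRT8 lies between 0.626 and 0.630 in the knockdown-labelled libraries and between 0.361 and 0.569 in the control-labelled libraries.

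Of 48 other keratin genes, 46 did not pass the filter on low counts, 23 of them at 0 counts in all libraries, and the highest count among the 46 was 23, for KRT75 in one control-labelled library. KRT80, a type II keratin, had 0.93, 0.88 and 0.85 RPKM in the knockdown-labelled libraries, against 3.27, 0.55 and 2.12 RPKM in the control-labelled libraries, with overlap (log2 fold change −1.27 ± 0.49, adjusted p = 0.104 in edgeR). DESeq2 (−1.25, adjusted p = 0.0418), voom (−1.81, adjusted p = 5.55e-06) and edgeR without replicate 2 of the control-labelled libraries (−1.67, adjusted p = 0.000113) called KRT80 lower. KRT222, a keratin-like gene, fell to 0.27, 0.32 and 0.32 RPKM in the knockdown-labelled libraries, against 0.60, 0.39 and 0.62 RPKM in the control-labelled libraries (−0.99 ± 0.22, adjusted p = 0.0203 in edgeR). A second row carries the same symbol (ENSG00000264058). Whether the rows overlap was not tested, so reads may be split between them. The second row held 113, 107 and 148 counts in the knockdown-labelled libraries, against 97, 58 and 81 counts in the control-labelled libraries. It was not called (−0.06, adjusted p = 0.845 in edgeR). With composition trends removed the log2 fold change of the first row was 0.30. The call of KRT222 was also lost on both RPKM scales (adjusted p of 0.0640 and 0.0766 in limma-trend), with plain totals (0.0624 in edgeR), with no filter on low counts (0.0589 in edgeR) and without any one knockdown-labelled library or replicate 1 of the control-labelled libraries (adjusted p of 0.0732 to 0.105 in edgeR).

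Of 16 other intermediate filament genes 15 were tested, and 2 rose, or 13.3%, against 9.29% of all genes. They were NEFH (2.85 ± 0.19, adjusted p = 0.00034) and DES (2.00-fold, adjusted p = 0.0355), both in edgeR, which encode the heavy neurofilament and desmin. None was called lower by edgeR or DESeq2, while 2 were lower at an unadjusted p under 0.05. The median was 0.23. With one library left out 1 to 5 rose and 0 to 3 fell, the most without replicate 2 of the control-labelled libraries. VIM, the vimentin of mesenchymal and many cultured cells, lay between 227 and 232 RPKM in the knockdown-labelled libraries and at 291, 456 and 263 RPKM in the control-labelled libraries, above KRT8 in each library, and was not called (−0.77 ± 0.32, adjusted p = 0.117 in edgeR). Of 20 genes that link keratins to desmosomes and hemidesmosomes 13 were tested, 3 rose and 1 fell, or 23.1% and 7.69%, against 9.29% and 14.7% of all genes, with a median of 0.26 and 1 to 3 rising with one library left out. The plakophilins PKP3 (3.31 ± 0.43) and PKP2 (0.57 ± 0.14) and the desmocollin DSC3 (0.41 ± 0.10) rose, and DST, which anchors filaments to hemidesmosomes, fell by 2.24 on the log2 scale. DSP, the plakin that binds keratin at desmosomes, was not called (0.43, adjusted p = 0.265 in edgeR).

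Among genes that bind, cut or stabilise EPCAM the shares called were near those of all genes. Of 21 listed 19 were tested, 2 rose and 3 fell, or 10.5% and 15.8%, against 9.29% and 14.7% of all genes, with a median of −0.22. With one library left out 1 to 6 rose and 2 to 8 fell, the most without replicate 2 of the control-labelled libraries. ST14, the protease matriptase that cleaves EPCAM, rose by 2.57 ± 0.24 on the log2 scale, and its inhibitor SPINT1 by 0.59 ± 0.17. ADAM10, a sheddase, APH1A, a subunit of the gamma-secretase that releases the EPCAM intracellular domain, and CD44, a partner at the membrane, had log2 fold changes of −1.04 ± 0.12, −1.03 ± 0.17 and −1.03 ± 0.15 and were called lower. CLDN7, which EPCAM stabilises, was not called (0.75 ± 0.31, adjusted p = 0.124 in edgeR).

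Among other genes of simple epithelia, all calls were in the opposite direction to that of EPCAM. Of 27 listed 21 were tested, and 6 rose, or 28.6% of those tested, against 9.29% of all genes. This list, like the others, was chosen with earlier results of these data known, so its share is not independent of them. The median was 0.29. They were CRB3 (2.96 ± 0.34), a polarity protein, OVOL1 (1.64 ± 0.34), a transcription factor, ESRP2 (1.19 ± 0.25), a splicing factor, CDH3 (1.16 ± 0.22), P-cadherin, and the junction proteins MARVELD3 (0.71 ± 0.17) and LSR (0.58 ± 0.11). None was called lower by edgeR or DESeq2 and none was lower at an unadjusted p under 0.05, while 2 were called lower by voom and 2 without replicate 2 of the control-labelled libraries. Without any one knockdown-labelled library 1 gene rose, without replicate 1 of the control-labelled libraries 2, and between 5 and 8 in each other setting. CDH1, E-cadherin, had 3.27, 2.82 and 3.31 RPKM in the knockdown-labelled libraries, against 1.31, 0.43 and 1.81 RPKM in the control-labelled libraries, with no overlap, and missed the threshold (1.29 ± 0.39, adjusted p = 0.0516 in edgeR). Of 8 repressors of epithelial genes, all tested, ZEB1 (−2.46 ± 0.22), SNAI2 (−0.82 ± 0.24) and TCF4 (−0.67 ± 0.14) fell and SNAI1 (1.07 ± 0.31) rose, with a median of −0.23. The shares were 37.5% lower and 12.5% higher, against 14.7% and 9.29% of all genes. With one library left out 0 to 2 rose and 1 to 3 fell, the fewest without any one knockdown-labelled library or replicate 1 of the control-labelled libraries.

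**Figure D4:**
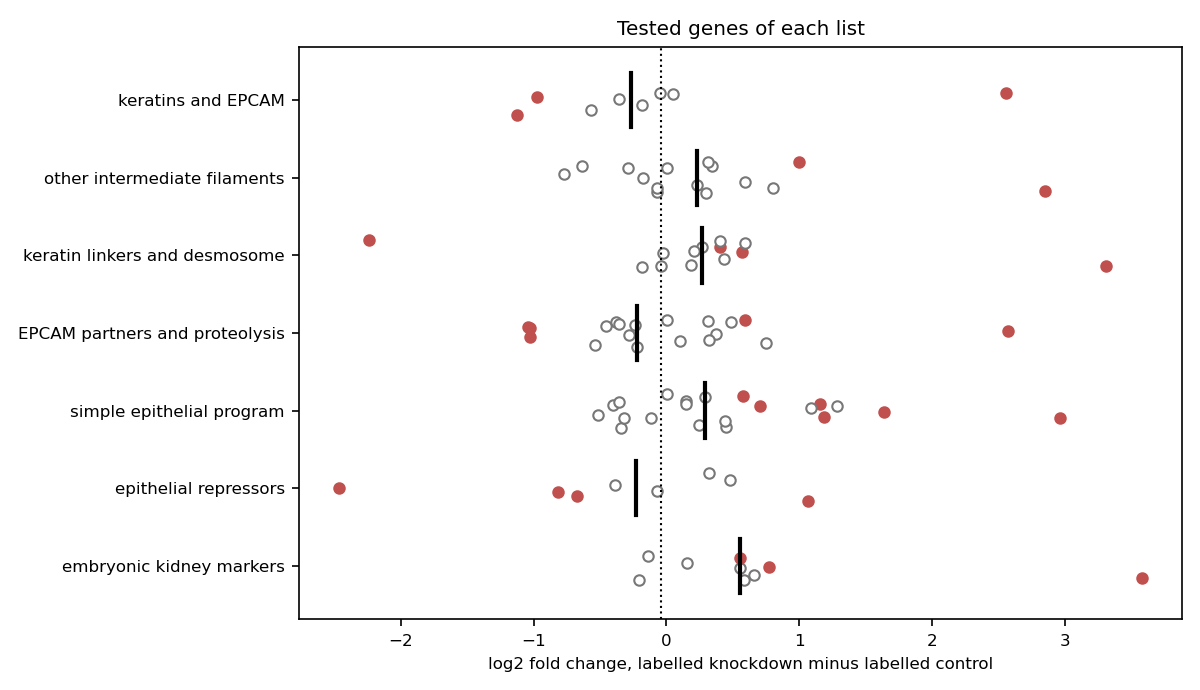
Log2 fold change (horizontal axis, knockdown-labelled libraries minus control-labelled libraries) of each tested gene in 7 lists. Filled circles have an adjusted p below 0.05 in edgeR, solid bars are list medians, and the dotted line is the median of all genes tested, −0.04. The genes called in the simple epithelial list lie to the right, and those called among the keratins and EPCAM on both sides.

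Marker lists bore on the identity of the cells. Of 10 embryonic kidney markers 9 were tested and 3 rose, or 33.3%, against 9.29% of all genes. Among them were SALL1 (0.77 ± 0.17) and GATA3 (0.56 ± 0.14), and the median was 0.56. With one library left out 1 to 7 rose, the most without replicate 2 of the control-labelled libraries. None was called lower by edgeR or DESeq2 and none at an unadjusted p under 0.05. Of 13 keratinocyte markers 10 were below the filter, with at most 6 counts in any library, and TP63, the defining factor of basal keratinocytes, had 4, 1 and 0 counts in the knockdown-labelled libraries, against 2, 0 and 2 counts in the control-labelled libraries. None of the 3 tested was called by edgeR, 1 was lower at an unadjusted p under 0.05, and DESeq2 called 1 lower. The summed keratinocyte level was 12.3 to 12.8 RPKM in the knockdown-labelled libraries and 8.95 to 23.3 RPKM in the control-labelled libraries. Summed fibroblast markers were at 5.08 to 5.53 RPKM in the knockdown-labelled libraries and 1.89 to 6.25 RPKM in the control-labelled libraries, and blood cell markers at 1.07 to 1.24 RPKM in the knockdown-labelled libraries and 0.81 to 1.25 RPKM in the control-labelled libraries. Of 5 fibroblast genes tested COL1A2 rose and LUM fell, of 8 neuronal genes TUBB3 rose and SYT1 fell, and neither of 2 blood cell genes was called by edgeR or DESeq2 or had an unadjusted p under 0.05. Summed neuronal markers were at 87.36 to 92.38 RPKM in the knockdown-labelled libraries and 59.98 to 111.05 RPKM in the control-labelled libraries. Embryonic kidney markers summed to less, at 41.48 to 43.04 RPKM and 21.6 to 34.2 RPKM in the same order. The neuronal gene NEFL averaged 53.02 RPKM and 49.89 RPKM in these groups. PAX8, a kidney marker, was not tested, with at most 9 counts in any library. Whether other cells had a part in the values of the keratins and EPCAM was not tested.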

How the data were processed

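The authors deposited raw counts of reads for each gene together with RPKM. Each RPKM matched, within 0.006, the value recomputed from the count, the exonic length and the library total. The submitters' processing notes name edgeR 3.4.6, DESeq 1.18.0, DESeq2 1.6.3, HTSeq 0.6.1, StringTie 1, bcl2fastq 2.17.1.14 and build hg19, without their roles. Aligner, annotation, strand setting and whether bisulfite-treated libraries gave this table are not given in the sources used here. Columns were tied to samples by the second name in each sample's description.

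The main test was the edgeR 4.0.16 fit in R 4.3.3 (TMM, filterByExpr, robust quasi-likelihood F test, adjusted by Benjamini-Hochberg over 17805 genes, threshold 0.05), with both groups sharing the spread. Fold changes are log2 values, knockdown-labelled libraries minus control-labelled libraries, ± SE taken from the fold change and the F statistic. In this text CPM are TMM-scaled. Each single gene was also tested by an exact permutation test on log2(RPKM + 1), and shares and ratios by the same test on their untransformed values. Values given ± SE or SD include the spread between libraries, and floors (3 counts) cover counting error only. Alternatives were DESeq2 1.42.0, voom and limma-trend (limma 3.58.1), other scalings, no filter, a replicate block, composition and length trends removed (mgcv 1.9.3), pseudogene counts added or removed, and each library left out. Every pair of libraries within a group differed beyond sampling noise. Symbols, chromosomes, composition and sequences came from GENCODE release 29 on GRCh38, another build, so no coordinates are given. The code was tested on simulated data.

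The members and the gene lists were chosen with earlier results of these data known. Named genes are the members, TRDMT1, other keratins past the filter, up to 3 called genes per direction and list with the largest change, defining genes of a list at or near 0, and the 5 genes most like KRT8 and EPCAM. Some items that this rule names are not reported here. KRT14, KRT75, VIM, DSP, CLDN7, CDH1, TMEM99, MARVELD3 and LSR were added after their values were seen.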

Additional observations from a re-analysis of the deposited data

How the results depend on the processing

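Depth limits KRT5 and KRT7, at 29 counts or fewer per library. Beside the edgeR counts of 1654 genes higher and 2613 lower (38.8% higher), voom with sample weights gave 4923 higher and 5291 lower. Genes lower were 1527 on log2(RPKM + 1) (60.1% of calls higher), 1530 on log2(RPKM + 0.1) (56.9%) and 1651 with plain totals (53.4%), a scaling that moved the median of all genes to 0.13, against −0.04. Leaving out one library gave 305 to 4279 genes higher and 886 to 4784 lower, the most without replicate 2 of the control-labelled libraries. Members called higher were 0 to 1 and lower 1 to 3 with one library out. Members called lower were 5 with voom and 1 with log2(RPKM + 1), log2(RPKM + 0.1) or plain totals.

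TRDMT1 passed the threshold in DESeq2 (0.64), voom (0.66), log2(RPKM + 1) (0.25), log2(RPKM + 0.1) (0.66), plain totals (0.80) and without replicate 2 of the control-labelled libraries (0.79), and its range with one library out was 0.45 to 0.79. KRT8 passed in DESeq2 (−0.33), voom (−0.36) and with composition trends removed (−0.51), with a range of −0.37 to −0.31. Voom alone called KRT7 (−0.96) and KRT19 (−0.22). EPCAM missed the threshold with log2(RPKM + 1) (−0.74), log2(RPKM + 0.1) (−0.76), plain totals (−0.82) and composition trends removed (−0.82), with a range of −1.10 to −0.67. KRT5 had a range of 2.11 to 2.94 and KRT7 of −0.83 to −0.29. KRT10 turned to 0.15 on both RPKM scales, 0.14 with plain totals and 0.028 with no filter, with a range of −0.24 to 0.10. KRT18 turned to −0.16 with voom and −0.028 with composition trends removed, with a range of −0.10 to 0.25, and KRT222 to 0.30 with composition trends removed. The cause was not tested.

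Same-numbered libraries did not deviate together (r of −0.04, 0.06 and 0.00), and 1 of the 3 pairs matched best by number. With the replicate block 2976 genes were called, against 4267, and EPCAM (−0.93), KRT17 (−1.11) and KRT5 (2.64) kept their calls, while KRT222 did not (adjusted p = 0.0691 in edgeR). The ratio with coding transcript length was added after the data were seen.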

Other observations

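Across the 6 libraries, genes whose log2 CPM was among the most like that of KRT8, of 7696 tested genes averaging 5 RPKM or more, were PRPF39 (Pearson r = 0.999), RNF13 (0.999), CDK1 (0.998) and ATG4C (0.998). For EPCAM they were ADSS (0.998), FUCA2 (0.997), ACAA2 (0.997), MYCBP (0.997) and DNAJA1 (0.996). These are descriptions over 6 points that share the split into 2 groups and the depth of the libraries.

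The members lie on 3 chromosomes. The tested protein-coding genes of chromosome 2, which holds EPCAM, had a median log2 fold change of −0.16 over 944 genes, those of chromosome 12, which holds KRT5, KRT7, KRT8 and KRT18, −0.12 over 735, and those of chromosome 17, which holds KRT10, KRT17 and KRT19, 0.10 over 813. KRT15, a type I keratin of basal cells that was below the filter, had 13, 7 and 11 counts in the knockdown-labelled libraries, against 2, 2 and 3 counts in the control-labelled libraries, and was named after its values were seen.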
